A study of Mus musculus with 8 samples.

Results

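A set of 40 genes of the mitotic spindle and its checkpoint was followed in mouse liver: cyclin B and its kinase, the checkpoint kinases, kinetochore and centromere proteins, the chromosomal passenger complex, spindle assembly factors, regulators of the anaphase-promoting complex, and proteins of the central spindle and of mitotic chromosomes. The 40 genes were taken by name, through current and older symbols, and all 40 were found, on 65 of the 41174 probes of a one-colour Agilent mouse array. They are 40 of the 18153 genes that passed the filter on dim probes, and all 40 passed it. The brightest probe stood for a gene, and 18 of the genes had more than 1 probe.

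The groups, all C57BL/6 and 6 months old, were Albumin-Cre;Dicer1loxP/loxP mice (KO) given N-ethyl-N-nitrosourea (ENU), Dicer1loxP/loxP littermates without the Cre (WT) given ENU, KO mice given dimethylsulfoxide as vehicle, and WT mice given vehicle. ENU, an alkylating mutagen, was injected once into the peritoneum at 120 mg/kg, and livers of ENU mice were measured 15 days later. The injected volume was 2 ml/kg in all groups. Both genotypes carried the floxed Dicer1 allele, and the Cre was driven by the albumin promoter; per the labels the knockout is specific to hepatocytes. Each group had 2 arrays, a and b, which over probes spotted at least 5 times did not differ by more than the spots did once each pair's overall shift was removed (permutation p of 0.341 to 0.958, one-sided; with the shift left in, 0.0165 for the KO vehicle pair and 0.148 to 0.651 for the other pairs). They were averaged and counted as 1 RNA sample per group, so a difference between 2 single groups carries no replicate error. How many mice a sample represents is not in the labels. Mice were labelled female, yet each of 4 Y-linked genes had a probe well above background on all 8 arrays.

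In a dividing cell, cyclin B with Cdk1 drives entry into mitosis, and kinetochores, built on centromeric chromatin, attach chromosomes to the spindle. The spindle assembly checkpoint holds back the anaphase-promoting complex until every kinetochore is attached; Cdc20 then activates that complex, securin and cyclin B are destroyed, and the sister chromatids part. These genes are transcribed mainly in G2 and M phase, and most hepatocytes of an adult liver are quiescent. In mouse and human cells many of the promoters carry CCAAT boxes, read by NF-Y, and a cell cycle genes homology region (CHR), read by the DREAM complex and by B-Myb with FoxM1.

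Promoters of some of the genes are printed because they show how these letters are spaced in genes that moved together and in genes that did not. Each sequence is the 250 bases before the start of the gene in RefSeq, assembly GRCm38.p6, read in the direction of the gene. Capitals mark CCAAT (or ATTGG on the other strand) and the CHR letters TTTGAA (or TTCAAA) and TTCGAA, which reads alike on both strands; boxes that share bases form 1 run of capitals. Cdk1, Ube2c, Top2a, Cdc20 and Mki67 rose in KO liver, while Bub3 and Pttg1 did not pass the test. The printed genes that rose all hold both motifs before the start, which not all genes that rose do.
Cdk1, chr10:69352913-69353162, minus strand: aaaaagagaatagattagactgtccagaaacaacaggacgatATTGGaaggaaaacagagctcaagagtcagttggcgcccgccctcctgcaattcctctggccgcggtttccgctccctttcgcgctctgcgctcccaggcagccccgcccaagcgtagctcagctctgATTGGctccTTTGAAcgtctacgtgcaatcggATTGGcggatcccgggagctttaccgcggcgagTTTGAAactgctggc
Ube2c, chr2:164769679-164769928, plus strand: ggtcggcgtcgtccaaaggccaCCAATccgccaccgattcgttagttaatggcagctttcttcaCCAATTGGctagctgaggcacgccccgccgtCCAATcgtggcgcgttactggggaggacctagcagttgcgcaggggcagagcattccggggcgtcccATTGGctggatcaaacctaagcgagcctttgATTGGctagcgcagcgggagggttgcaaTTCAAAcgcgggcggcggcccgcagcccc
Top2a, chr11:99024190-99024439, minus strand: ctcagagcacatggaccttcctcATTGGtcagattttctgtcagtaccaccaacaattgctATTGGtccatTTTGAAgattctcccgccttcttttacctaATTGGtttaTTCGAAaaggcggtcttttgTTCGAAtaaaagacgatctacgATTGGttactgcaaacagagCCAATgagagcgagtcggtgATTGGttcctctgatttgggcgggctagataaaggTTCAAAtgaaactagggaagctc
Cdc20, chr4:118437344-118437593, minus strand: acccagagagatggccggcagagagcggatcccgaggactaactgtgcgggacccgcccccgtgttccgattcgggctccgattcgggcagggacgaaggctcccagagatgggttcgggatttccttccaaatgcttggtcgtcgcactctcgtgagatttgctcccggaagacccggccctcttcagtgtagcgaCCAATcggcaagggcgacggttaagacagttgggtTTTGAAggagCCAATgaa
Mki67, chr7:135716380-135716629, minus strand: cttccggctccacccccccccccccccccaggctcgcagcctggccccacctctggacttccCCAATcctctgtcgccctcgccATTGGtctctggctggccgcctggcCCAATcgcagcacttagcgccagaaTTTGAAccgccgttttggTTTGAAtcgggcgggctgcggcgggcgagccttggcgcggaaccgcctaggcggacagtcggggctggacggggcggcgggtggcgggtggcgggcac
Bub3, chr7:131560120-131560369, plus strand: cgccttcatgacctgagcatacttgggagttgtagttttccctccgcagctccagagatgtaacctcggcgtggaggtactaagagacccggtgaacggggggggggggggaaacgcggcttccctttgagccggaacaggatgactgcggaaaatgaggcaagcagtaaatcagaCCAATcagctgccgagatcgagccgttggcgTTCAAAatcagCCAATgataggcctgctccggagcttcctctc
Pttg1, chr11:43425982-43426231, minus strand: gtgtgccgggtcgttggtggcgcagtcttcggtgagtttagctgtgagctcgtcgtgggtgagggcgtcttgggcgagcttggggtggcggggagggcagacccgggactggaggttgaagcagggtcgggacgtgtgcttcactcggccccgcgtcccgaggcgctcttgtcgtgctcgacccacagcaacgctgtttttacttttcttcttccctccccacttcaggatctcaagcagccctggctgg

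Windows of 300 bases, 250 before and 50 after the start, were held for 33 of the 40 genes, as 38 windows. CCAAT stood in 30 of the 38 windows (78.9%), against 37.4% of 32851 windows of all genes, and the CHR letters stood in 25 of 38 (65.8%), against 19.2%. No CCAAT and CHR match overlapped in these 38 windows. Before the start, Ube2c and Top2a held 6 CCAAT matches each, and Top2a held 4 CHR matches. Pttg1 held neither motif, and neither did Birc5, Mad2l1, Nuf2, Nusap1 and Tacc3, which rose. Bub3 held both, so its window does not differ in this respect from those of the printed genes that rose. Of the 29 genes with a window that rose, 22 held a CCAAT and 20 a CHR match; of the 4 with a window that did not pass the test, 3 and 2 did. A match is a run of letters and shows no binding.

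In KO liver nearly all of these genes were higher than in WT liver, after ENU and on vehicle alike. Signals below are processed signals as a percentage of the array's 75th percentile, and they can be compared between arrays for a gene but not between genes. Differences are on the log2 scale. Rose and fell mark a pass in limma, fitted to the 4 RNA samples on additive terms for genotype and treatment, at a Benjamini-Hochberg adjusted p under 0.05 over all 18153 genes. The fit has 1 residual degree of freedom, the departure of the ENU difference in KO from that in WT, so its p-values measure only the spread between these samples. By this test 34 of the 40 genes rose in KO and 0 fell, where 16.9% of all genes rose and 15.3% fell. The median difference of the 40 genes was 2.93, and that of all genes was -0.12. Among the 34 the difference ranged up to 4.02 (Ccnb1, which was dim in WT vehicle; with normexp the highest was Prc1 at 3.22), with limma adjusted p of 0.0101 to 0.0236. For 39 of the 40, Pttg1 being the exception, both KO arrays lay above both WT arrays at each treatment, as 31.2% of all genes did. That count takes dim signals as measured, and Cdc25c and Ttk were dim on all vehicle arrays. With normexp the KO minus WT difference on vehicle was -0.34 for Cdc25c, -0.09 for Ttk and -0.13 for Anln. The liver is a mixture, and more cells of a dividing type and more RNA per cell cannot be told apart here.

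**Figure D1:**
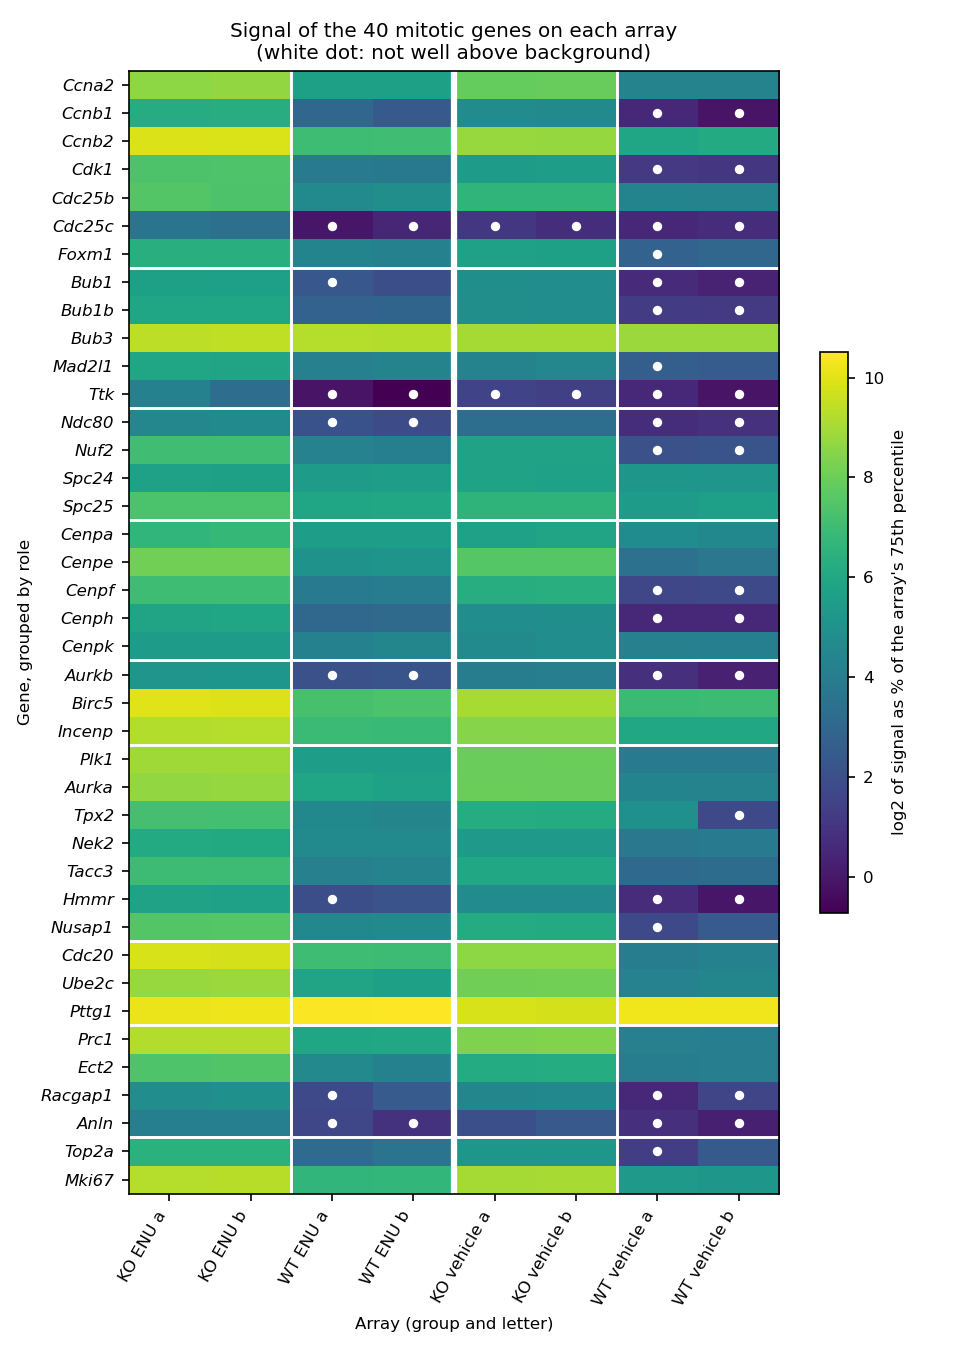
Signal of the 40 genes (rows, ordered by role, white lines between roles) on the 8 arrays (columns), as log2 of the percentage of the array's 75th percentile. White dots mark arrays where the probe was not well above background, which were both KO vehicle arrays for Cdc25c and Ttk, and WT arrays.

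Detection differed between the groups, over these genes and over the whole array. All 40 genes were well above background on both KO ENU arrays, 32 on both WT ENU arrays, 38 on both KO vehicle arrays and 21 on both WT vehicle arrays. Over all spots the share well above background was 69.3% and 64.4% in KO ENU, 58.9% and 64.1% in WT ENU, 66.2% and 65.2% in KO vehicle, and 54.7% and 59.4% in WT vehicle. In WT vehicle 14 genes were dim on both arrays and 5 on 1 array (Foxm1, Mad2l1, Nusap1, Top2a and Tpx2). Where a gene was dim on both arrays of the lower group, the fold is a bound, the brighter group's mean over a floor set per array (the dimmest signal of any probe that passed as well above background, or the gene's own signal if larger).

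Of the 7 genes of the cyclin and Cdk1 switch, 6 rose. Ccnb1, the B-type cyclin that activates Cdk1, read 76.2 and 78.6 in KO ENU, 7.86 and 5.46 in WT ENU, 25.8 and 25.0 in KO vehicle, and 1.43 and 0.921 in WT vehicle. The 4 groups did not overlap, and WT vehicle was not well above background. Its signal in KO was 11.8-fold that in WT after ENU and at least 4.52-fold on vehicle, and it rose by 4.02 ± 0.291 log2 (SE, limma adjusted p = 0.0101). Cdk1, the mitotic kinase, read 167 and 173 in KO ENU, 14.3 and 14.3 in WT ENU, 45.5 and 46.8 in KO vehicle, and 2.19 and 2.07 in WT vehicle. KO was 11.9-fold higher after ENU and at least 8.20-fold higher on vehicle, again with no overlap of groups. Ccna2 (cyclin A2, of S and G2 phase) stood 7.93-fold higher in KO after ENU and 11.7-fold on vehicle, and Ccnb2 stood 7.28-fold and 6.59-fold higher. The phosphatase Cdc25b, which removes inhibitory phosphates from Cdk1, and Foxm1, a transcription factor of G2 genes, rose by 2.50 and 2.42. Cdc25c, a related phosphatase, was well above background in KO ENU only, at 12.03 and 10.65, against 0.961 and 1.38 in WT ENU. On vehicle it read 2.16 and 1.67 in KO and 1.47 and 1.65 in WT, all dim, and its difference of 1.79 ± 0.784 did not pass (limma adjusted p = 0.152).

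Checkpoint genes divided: 3 of 5 rose. Bub1, a kinase that recruits checkpoint proteins to kinetochores, read 50.3 and 49.1 in KO ENU, 4.94 and 3.91 in WT ENU, 29.1 and 27.3 in KO vehicle, and 1.52 and 1.28 in WT vehicle, with no overlap between groups. It was dim on 1 of the 2 WT ENU arrays and on both WT vehicle arrays. Its KO signal measured 11.3-fold that of WT after ENU and at least 5.01-fold on vehicle. Bub1b (BubR1), which with Mad2 inhibits Cdc20, was 8.50-fold and at least 5.03-fold higher, at 60.2 and 61.4 in KO ENU, 6.89 and 7.42 in WT ENU, 28.6 and 27.9 in KO vehicle, and 2.37 and 2.26 in WT vehicle. Mad2l1, the gene of Mad2, rose by 1.70 ± 0.184 (limma adjusted p = 0.0134). Bub3, which docks Bub1 and BubR1 at kinetochores, read 668 and 702 in KO ENU, 606 and 597 in WT ENU, 510 and 517 in KO vehicle, and 454 and 448 in WT vehicle. That is 1.14-fold higher in KO at each treatment, and the difference of 0.19 ± 0.180 did not pass (limma adjusted p = 0.452). With arrays scaled to their median the Bub3 difference was -0.02. Ttk (Mps1), the kinase that starts checkpoint signalling, read 18.3 and 9.87 in KO ENU, 0.917 and 0.604 in WT ENU, 2.86 and 2.65 in KO vehicle, and 1.43 and 0.912 in WT vehicle. It was well above background in KO ENU alone, where it was at least 3.64-fold above WT, and its difference of 2.72 ± 0.756 did not pass (limma adjusted p = 0.0635).

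The NDC80 complex, which grips microtubules at the outer kinetochore, has 4 subunits and 3 of their genes rose. Nuf2 read 133 and 134 in KO ENU, 18.9 and 17.5 in WT ENU, 53.2 and 54.0 in KO vehicle, and 4.19 and 4.62 in WT vehicle, so that KO was 7.36-fold higher after ENU and at least 9.39-fold on vehicle. Its partner Ndc80 read 22.2 and 24.6 in KO ENU, 4.33 and 3.69 in WT ENU, 10.2 and 10.1 in KO vehicle, and 1.68 and 1.83 in WT vehicle, and both WT groups were dim. Spc25 rose by 1.22 ± 0.199 (limma adjusted p = 0.0236). Spc24, its partner in the complex, read 52.3 and 50.4 in KO ENU, 44.9 and 46.2 in WT ENU, 53.7 and 52.7 in KO vehicle, and 37.7 and 34.9 in WT vehicle. KO was 1.13-fold higher after ENU and 1.47-fold on vehicle, and the difference of 0.36 ± 0.204 did not pass (limma adjusted p = 0.234).

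Among centromere proteins 4 of 5 rose. Cenpf, a large protein of the outer kinetochore in late G2 and mitosis, read 130 and 129 in KO ENU, 15.1 and 16.0 in WT ENU, 78.2 and 81.5 in KO vehicle, and 3.20 and 3.42 in WT vehicle. Its KO signal was 8.34-fold higher after ENU and at least 14.2-fold on vehicle. Cenph, of the inner kinetochore, read 58.0 and 61.6 in KO ENU, 8.39 and 9.03 in WT ENU, 27.1 and 29.7 in KO vehicle, and 1.42 and 1.42 in WT vehicle. Cenpe, a kinesin that moves chromosomes to the spindle equator, was 8.31-fold and 15.1-fold higher after ENU and on vehicle. Cenpa, the histone H3 variant that marks centromeres, was 2.20-fold higher at both. Cenpk, another inner kinetochore protein, read 43.1 and 44.5 in KO ENU, 18.7 and 21.5 in WT ENU, 25.3 and 27.5 in KO vehicle, and 17.8 and 17.5 in WT vehicle. On this probe the groups did not overlap, yet the Cenpk difference of 0.85 ± 0.228 did not pass (limma adjusted p = 0.0588). Its limma adjusted p was 0.0497 without array a of KO vehicle and 0.0304 with only genes well above background on all 8 arrays. Another Cenpk probe, also well above background on all 8 arrays, read 25.8 and 23.6 in KO ENU and 13.3 and 34.6 in WT ENU. On that probe these groups overlapped.

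All 3 genes of the chromosomal passenger complex, which corrects faulty attachments and later acts in cytokinesis, rose. Aurkb, its kinase Aurora B, read 35.5 and 36.3 in KO ENU, 4.14 and 4.50 in WT ENU, 16.4 and 16.8 in KO vehicle, and 1.72 and 1.23 in WT vehicle. Both WT groups were dim, and KO was at least 7.92-fold higher after ENU and at least 2.95-fold on vehicle. Incenp, the scaffold, read 595 and 621 in KO ENU, 124 and 118 in WT ENU, 352 and 358 in KO vehicle, and 63.3 and 62.2 in WT vehicle, that is 5.03-fold and 5.66-fold higher in KO. Birc5 (survivin) was 6.32-fold and 4.25-fold higher.

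All 7 centrosome and spindle assembly genes rose. Plk1, the polo-like kinase of mitotic entry, centrosomes and kinetochores, read 476 and 489 in KO ENU, 48.0 and 46.9 in WT ENU, 245 and 250 in KO vehicle, and 14.4 and 14.5 in WT vehicle. Every array was well above background, and KO was 10.2-fold higher after ENU and 17.1-fold on vehicle, a rise of 3.72 ± 0.263 (limma adjusted p = 0.0101). Hmmr, a spindle-associated hyaluronan receptor, read 53.6 and 52.5 in KO ENU, 3.97 and 4.39 in WT ENU, 25.6 and 25.9 in KO vehicle, and 1.64 and 0.980 in WT vehicle. It was dim on 1 of the 2 WT ENU arrays and both WT vehicle arrays, and its KO signal measured 12.7-fold that of WT after ENU and at least 4.58-fold on vehicle. Aurka, the centrosomal kinase Aurora A, rose by 3.27, Nusap1 by 3.49, Tacc3 by 2.78 and the centrosome kinase Nek2 by 1.50. Tpx2, the activator of Aurora A, rose by 2.80 ± 0.185, but its WT vehicle arrays read 30.1 and 3.34, which is 3.17 log2 apart and the widest gap between arrays of a group among the 40 genes. Without array a of WT vehicle the Tpx2 difference was 3.59 (limma adjusted p = 0.0210), and without array b it was 2.01 (limma adjusted p = 0.0363).

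Of the 3 genes around the anaphase-promoting complex, the activator Cdc20 and the ubiquitin-conjugating enzyme Ube2c rose. Cdc20 read 913 and 878 in KO ENU, 129 and 127 in WT ENU, 391 and 389 in KO vehicle, and 16.6 and 18.4 in WT vehicle. KO exceeded WT 6.99-fold after ENU and 22.4-fold on vehicle, the widest gap between treatments among those of the 40 genes that were well above background on all 8 arrays, with a rise of 3.65 ± 0.462 (limma adjusted p = 0.0163). Ube2c stood 8.33-fold and 13.5-fold higher, at 446 and 455 in KO ENU, 57.2 and 51.1 in WT ENU, 271 and 277 in KO vehicle, and 19.0 and 21.6 in WT vehicle. Pttg1, securin, the inhibitor of separase that the complex destroys, read 1180 and 1197 in KO ENU, 1413 and 1462 in WT ENU, 909 and 880 in KO vehicle, and 1221 and 1219 in WT vehicle. Both KO samples lay below the WT sample of the same treatment, yet the difference of -0.36 ± 0.185 did not pass (limma adjusted p = 0.201), and with quantile normalization it was 0.06.

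All 4 central spindle and cytokinesis genes rose. Prc1, which bundles antiparallel microtubules, read 599 and 593 in KO ENU, 59.7 and 61.8 in WT ENU, 322 and 334 in KO vehicle, and 18.04 and 17.67 in WT vehicle, 9.80-fold and 18.4-fold higher in KO after ENU and on vehicle. Racgap1, the GTPase-activating subunit of centralspindlin, read 27.7 and 30.1 in KO ENU, 3.42 and 5.73 in WT ENU, 21.5 and 22.9 in KO vehicle, and 1.42 and 3.11 in WT vehicle. Ect2, the exchange factor for RhoA at the cleavage furrow, rose by 2.61, and the furrow scaffold anillin (Anln) by 2.25 ± 0.341 (limma adjusted p = 0.0211). Top2a, the topoisomerase that untangles sister chromatids, read 87.1 and 86.8 in KO ENU, 9.33 and 11.97 in WT ENU, 37.5 and 36.8 in KO vehicle, and 2.46 and 5.52 in WT vehicle. Mki67, the proliferation antigen Ki-67 that coats mitotic chromosomes, read 612 and 638 in KO ENU, 103 and 105 in WT ENU, 510 and 529 in KO vehicle, and 41.2 and 37.2 in WT vehicle. Both rose, by 3.19 ± 0.195 and 3.16 ± 0.342, and neither had overlapping groups.

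**Figure D2:**
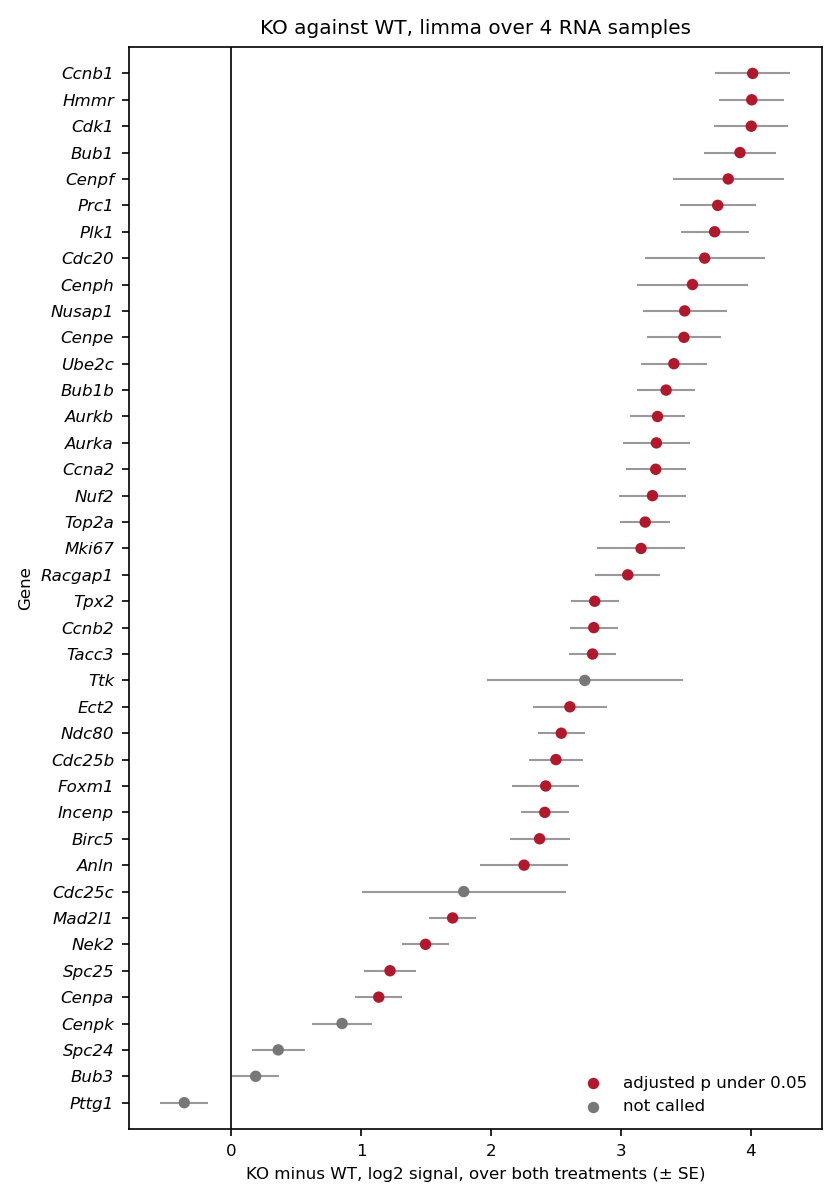
Fitted KO minus WT difference of each gene in log2 signal over both treatments, with its standard error (bars), from limma over 4 RNA samples. The 34 red points passed at an adjusted p under 0.05; the 6 grey ones are Ttk, Cdc25c, Cenpk, Spc24, Bub3 and Pttg1.

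The size of these differences depended on how background was treated. With normexp background correction the median over the 40 genes was 1.66 in place of 2.93, and 17 of the 34 differences shrank by more than 1.5 times. Ccnb1 then differed by 1.66, Cdk1 by 2.23, Bub1 by 1.47, Nuf2 by 1.98, Cenpf by 2.30 and Hmmr by 1.54, while Plk1, Cdc20 and Prc1 kept 3.11, 3.18 and 3.22. The bounds given above therefore hold for the processed signal and not for normexp. With normexp 32 of the 40 genes rose; Anln (0.31, limma adjusted p = 0.362) and Ndc80 (0.65, limma adjusted p = 0.0677) no longer passed. Restricting the test to genes well above background on all 8 arrays left 21 of the 40, of which 18 rose and 0 fell, where 14.8% of the 14553 genes so tested rose and 25.6% fell.

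These genes had 25 other probes, of which 5 were well above background on no array and 11 on KO arrays only. Among the remaining 9, a second Bub3 probe was not higher in KO; it read 109 and 111 in KO ENU, 124 and 123 in WT ENU, 100.2 and 104 in KO vehicle, and 111 and 102 in WT vehicle. The files place probes on mm7 (NCBI build 35), and no gene annotation of that build was used here. The Plk1 probe lies at 118093971 to 118094030 on chromosome 7, the Cdc20 probe at 117809370 to 117809429 on chromosome 4, the Ccnb1 probe at 97885282 to 97885341 on chromosome 13 and the Pttg1 probe at 43377052 to 43377111 on chromosome 11.

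Set by treatment, 37 of the 40 genes were at least 2-fold higher in KO than in WT after ENU (16.2% of all genes) and, by measured signal, 35 on vehicle (17.3%), and 0 were 2-fold lower (14.2% and 11.1% of all genes). With dim genes at their bounds 37 reached 2-fold after ENU and 32 on vehicle, without Ttk, Ndc80 and Anln. The median difference of the 40 by measured signal stood at 2.85 after ENU and at 3.11 on vehicle, against -0.10 and -0.14 over all genes. With dim genes at their bounds the medians were 2.78 over 40 genes after ENU and 2.33 over 37 genes on vehicle. Normexp gave 2.12 after ENU and 1.30 on vehicle. Which treatment showed the larger difference between KO and WT depended on the background correction: it was larger on vehicle for 28 of the 40 genes (52.8% of all genes) by processed signal and for 11 (47.9%) with normexp. Of the 21 genes well above background on all 8 arrays, 13 had the larger difference on vehicle by processed signal.

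After ENU these genes were higher than on vehicle in both genotypes for 37 of the 40 (31.6% of all genes), Cdc25c, Ttk and Spc24 being the exceptions, and for 32 (26.5%) with normexp. The 37 include Ndc80, Aurkb, Anln, Bub1, Hmmr and Racgap1, whose signal in WT was too dim to give an ENU fold. The fitted ENU difference was positive for all 40, from 0.14 for Spc24 to 2.31 for Cdk1, with a median of 1.07 against -0.05 over all genes. None passed: limma over the 4 RNA samples called 0 of the 18153 genes (0%) in either direction, with a smallest adjusted p of 0.159. At an unadjusted p under 0.05, 31 of the 40 were higher and 0 lower, beside 1918 genes higher (10.6%) and 2068 lower (11.4%) of all. ENU arrays shared 1 slide and vehicle arrays a second slide, which means that the effects of slide and of ENU cannot be told apart.

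**Figure D3:**
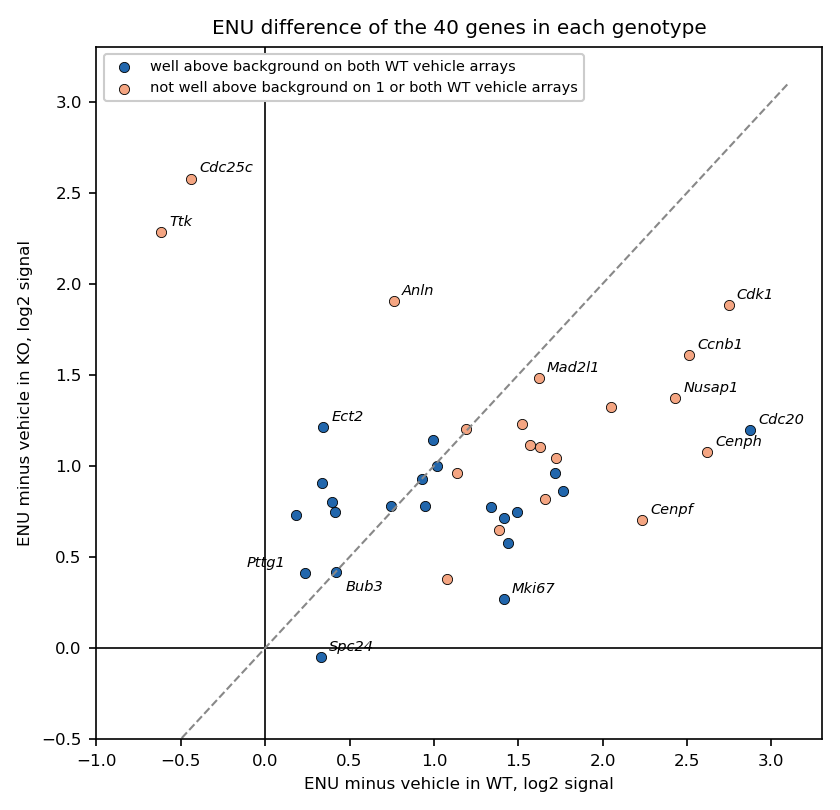
ENU minus vehicle difference of each of the 40 genes in KO (vertical axis) against that in WT (horizontal axis), in log2 signal; the dashed line marks equal differences. Orange points were not well above background on 1 or both WT vehicle arrays, and 28 of the 40 points lie below the dashed line; with normexp, which is not drawn, 11 do.

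The ENU difference was at least 2-fold for 17 of the 40 genes in KO (4.34% of all genes) and, by measured signal, for 25 in WT (7.18%), and 0 were 2-fold lower (5.42% and 5.49% of all genes). With dim genes at their bounds 17 reached 2-fold in KO and 17 in WT. Its median was 0.95 in KO and 1.36 in WT, or 1.08 over 32 genes in WT with dim genes at their bounds. With normexp the order turned, to 0.74 in KO and 0.34 in WT. Cdc20 was 2.29-fold higher in KO ENU than in KO vehicle and 7.34-fold higher in WT ENU than in WT vehicle. Cdk1 was 3.69-fold higher in KO and at least 2.54-fold higher in WT, Plk1 1.95-fold and 3.28-fold, and Mki67 1.20-fold and 2.66-fold. Ect2 stood the other way, 2.32-fold higher in KO and 1.27-fold in WT. Whether the ENU difference depends on genotype could not be tested, because the 4 samples leave no residual for it.

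Across the 4 groups, 34 of the 40 genes followed 1 order with no overlap of arrays, KO ENU above KO vehicle above WT ENU above WT vehicle, as did 8.73% of all genes. These counts take dim signals as measured. Among the 34 are Ndc80, Aurkb, Anln, Bub1, Hmmr and Racgap1, too dim in WT to give an ENU fold there. With normexp WT ENU lay below WT vehicle for all of these except Aurkb. With normexp the group means of 30 stood in that order (8.52% of all genes). By processed signal the exceptions were Cdc25c, Bub3, Ttk, Spc24, Tpx2 and Pttg1. The 5 other genes whose profile over the 4 RNA samples lay closest to the median profile of the 40 were Fgd1, Cep112, C230098O21Rik, Fbn1 and Neil3, at mean absolute log2 distances of 0.0551, 0.0564, 0.0602, 0.0886 and 0.0943.

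Beyond the 40, 105 further mitosis genes were listed and 101 were measured. Of these 56 rose and 3 fell, with a median difference of 1.32. Over all genes 16.9% rose and 15.3% fell, with a median of -0.12. Kinetochore and centromere genes rose in 15 of 27, led by Ska1 (3.56) and Cenpi (3.11), and other checkpoint and cohesin protection genes in 8 of 16, led by shugoshin Sgo2a (3.19) and sororin Cdca5 (3.07). Condensin and chromosome genes rose in 6 of 7, led by the condensin I subunits Ncapg (3.32) and Ncaph (2.70). Other spindle and cytokinesis genes rose in 16 of 22, led by Psrc1 (4.67), a microtubule-associated protein, and citron kinase Cit (4.30). Among other entry and exit regulators 11 of 29 rose, led by the kinases Pbk (4.08) and Melk (3.32), and 2 fell.

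The 3 genes that fell were Cdca2 (-1.56), which targets protein phosphatase 1 to chromatin in late mitosis, and the anaphase-promoting complex subunits Anapc13 (-1.12) and Cdc26 (-0.78). Cdca2 read 643 and 618 in KO ENU, 2161 and 2262 in WT ENU, 604 and 591 in KO vehicle, and 1533 and 1427 in WT vehicle. Anapc13 was lower in KO at both treatments too, with 2265 and 2237 in KO ENU, 5587 and 5657 in WT ENU, 3283 and 3185 in KO vehicle, and 6133 and 6136 in WT vehicle.

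**Figure D4:**
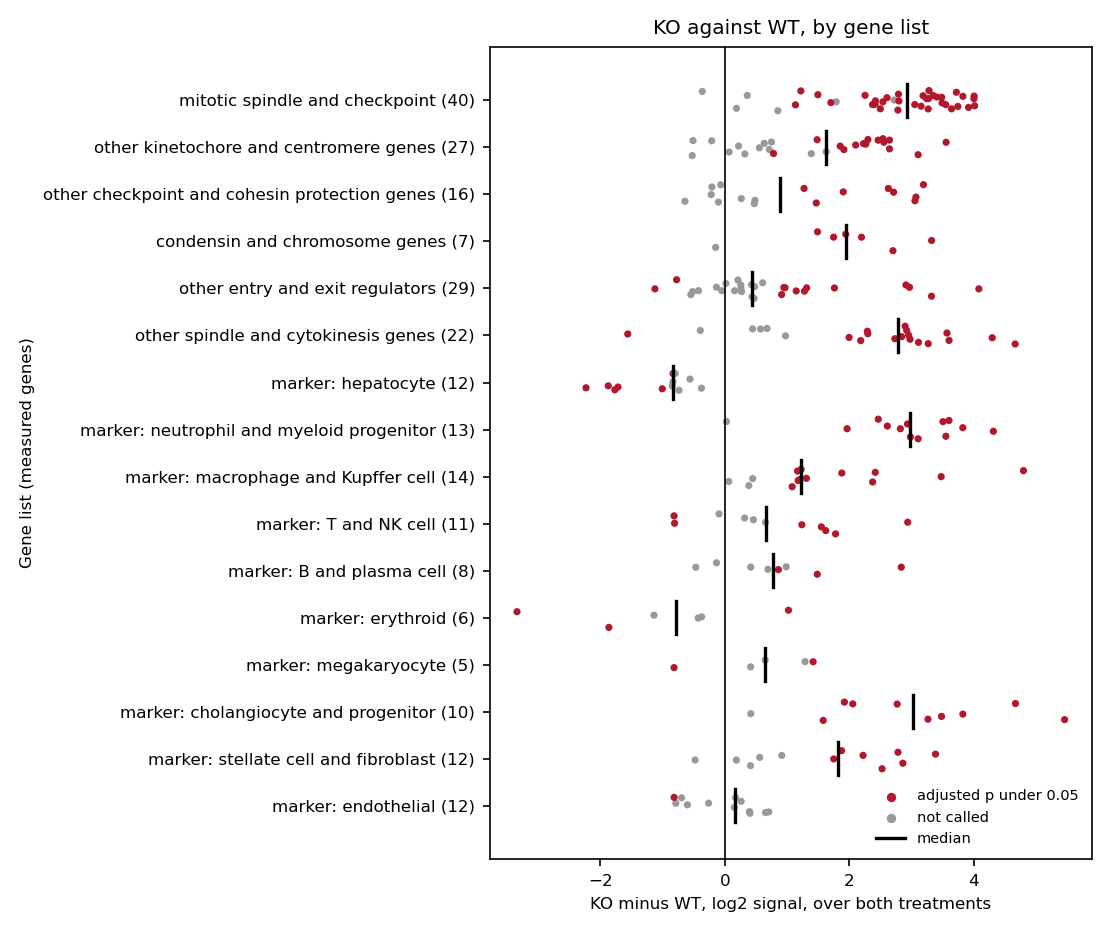
Fitted KO minus WT difference (log2 signal, both treatments) of each measured gene in the 40 mitotic genes (top row), 5 further mitosis lists and 10 marker lists; the number measured stands in brackets and the black line is the median. Red points passed at an adjusted p under 0.05. Neutrophil and myeloid progenitor markers and cholangiocyte markers lie as far right as the mitotic genes.

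Markers of some other liver cells moved with genotype beside these genes. The counts below stand beside 16.9% of all genes that rose and 15.3% that fell. Neutrophil and myeloid progenitor markers rose in 12 of 13, and their summed signal was 6918 to 7041 in KO ENU, 942 to 957 in WT ENU, 6833 to 6851 in KO vehicle and 688 to 695 in WT vehicle. Mpo, myeloperoxidase of granulocyte precursors, rose by 4.32. Cholangiocyte and progenitor markers rose in 9 of 10 (sum 9108 to 9223 in KO ENU, 996 to 1009 in WT ENU, 7959 to 8093 in KO vehicle, 893 to 906 in WT vehicle), macrophage and Kupffer cell markers in 11 of 14, and stellate cell and fibroblast markers in 7 of 12. Of 11 T and NK cell markers 5 rose and 2 fell, of 8 B and plasma cell markers 3 rose, of 6 erythroid markers 1 rose and 2 fell, and of 5 megakaryocyte markers 1 rose and 1 fell. Endothelial markers showed 0 rises and 1 fall in 12. Hepatocyte markers fell in 6 of 12 and rose in 0, and their sum was 127600 to 130700 in KO ENU, 215500 to 222900 in WT ENU, 137100 to 143600 in KO vehicle and 265700 to 266300 in WT vehicle. Which cells carried the mitotic transcripts, and the part of these cell types in the differences, was not tested.

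Dicer1 itself read lower in KO on both of its probes. The first, at 102186776 to 102188847 on chromosome 12 (mm7) read 6.50 and 5.85 in KO ENU, 16.3 and 18.9 in WT ENU, 5.70 and 4.41 in KO vehicle, and 26.4 and 28.8 in WT vehicle, which is 2.85-fold lower in KO after ENU and 5.51-fold on vehicle. The other probe, at 102216485 to 102216544, was 1.19-fold and 1.41-fold lower. Where the deleted part lies relative to these probes is not given in the sources used here. On both slides KO arrays lay at 1 pair of positions and WT arrays at another, and the effects of position and of genotype cannot be told apart.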

How the data were processed

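Liver RNA was measured on 8 one-colour Agilent arrays. The intensity values the authors deposited were written by Agilent Feature Extraction, version 10.7.1.1 per the file headers and 10.5.1 per the submitters' processing notes. The deposited columns used were the background-corrected processed signal and, for an alternative, the mean signal and local background intensity. Of 43379 spots per array that were not controls, 54.7% to 69.3% were well above background and none was saturated. The 75th percentile signal was 504 to 681 on ENU arrays and 437 to 674 on vehicle arrays. By genotype it was 629 to 681 on KO arrays and 437 to 524 on WT arrays, without overlap. Precision is limited by the number of RNA samples behind the arrays, 1 per group.

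From these, the processed signal was divided by the 75th percentile of its array and taken to log2, without control spots and outlier spots, and spots of a probe were averaged. Probes that were well above background on both arrays of some group were kept, and each gene took its brightest probe. A RefSeq table (GRCm38.p6) named 22944 probes through their accession, 6664 through the symbol and 3108 through a synonym, while 8458 kept the file's name. The test was limma 3.58.1 (R 4.3.3, lmFit and eBayes) on 4 RNA samples, with genotype and treatment as additive terms. Benjamini-Hochberg adjustment ran over 18153 genes. The fit was also run on simulated data with additive changes and normal noise of the same size for all genes. That run does not cover noise that differs between genes or ENU differences that depend on genotype. Array letters a and b did not pair the groups: a minus b correlated between groups at -0.02 to 0.11.

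The 40 genes, the further mitosis lists and the marker lists were chosen with earlier results of these data known. Values per array are given for the 1 or 2 genes of each role with the largest KO minus WT difference and for every gene that did not pass; in the further lists, the 2 largest rises and falls that passed are named. Alternatives were normexp (offset 50), quantile and median scaling, the mean of all probes of a gene, other filters on dim probes, 8 arrays as separate samples with and without the letter as a block, and leaving out each array.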

Additional observations from a re-analysis of the deposited data

Results flagged for a closer look

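Spc24, a subunit of the NDC80 complex, stood apart in its ENU difference. In KO both ENU arrays lay below both vehicle arrays, a log2 difference of -0.0511, while in WT both ENU arrays lay above both vehicle arrays, a difference of 0.33. The value in KO is no larger than the gap of 0.0528 between the 2 KO ENU arrays. This rests on 1 RNA sample per group, and the difference between the genotypes was not tested.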

How the results depend on the processing

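Of 621 KO minus WT values of single genes under all alternatives, 604 kept direction and side of the threshold, 13 passed anew, 2 no longer passed (Anln and Ndc80 with normexp) and 2 turned without passing, Bub3 (-0.0150 with median scaling) and Pttg1 (0.0591 with quantile normalization). The count of 34 rises became 18 of 21 testable genes when all 8 arrays had to be well above background, since fewer genes were tested, and 34 to 35 when any 1 array was left out. Fits of 8 arrays as separate samples measure array noise. Without a replicate block they called 39 of the 40 genes higher and 1 lower (Pttg1) in KO and 35 higher after ENU, and over all genes 5714 higher and 7703 lower in KO and 4345 higher and 5457 lower after ENU. With the array letter as a replicate block the counts were 38, 1 and 35, and 5498, 7407, 3893 and 4892. Over all genes lower calls in KO numbered 2778, 4170 with normexp and 4884 with median scaling, and the lower calls after ENU were 3 with normexp and 3 with the 8-array filter. Higher calls made up 52.4% of KO calls, 36.5% with normexp, 35.9% with median scaling, 58.6% with quantile normalization, 53.7% with no filter, 36.7% with the 8-array filter and 42.6% with 8 arrays; median scaling moved the median of all genes by -0.20.

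Medians over the 40 genes moved as follows. KO minus WT after ENU was 2.12 with normexp, 2.66 with median scaling, 2.79 with all probes averaged, 2.70 with the 8-array filter, 2.90 with quantile normalization and 2.84 to 2.85 with 1 array left out. KO minus WT on vehicle was 1.30, 2.89, 2.75 and 2.50 under the first 4 of these settings and 2.79 to 3.12 with 1 array left out. ENU minus vehicle in KO was 0.74 with normexp, 1.01 with quantile normalization, 0.78 with the 8-array filter and 0.93 to 0.96 with 1 array left out. In WT it was 0.34 with normexp, 1.0996 with all probes averaged, 0.95 with the 8-array filter and 1.30 to 1.36 with 1 array left out. The cause of these moves was not tested. Signal over background limits the genes that are dim in WT. The counts with dim genes at their bounds, and the counts of order and of the larger difference with normexp, were chosen after seeing the data.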
